A study of Homo sapiens with 18 samples.

Results

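RNA levels of 39 genes of the Wnt pathway were followed in THP-1, a monocyte-like line from a human leukaemia, depleted of the orphan nuclear receptors NR4A2 or NR4A3. The genes were chosen by name from the 57500 genes counted, as ligands and the proteins that release them, receptors and co-receptors, secreted inhibitors, and the cytoplasmic and nuclear effectors, and each of the 39 symbols matched 1 Ensembl gene. Earlier results of these data were known when the list was chosen, so its shares beside those of all genes are descriptions only. Stable lines carried a non-targeting short hairpin RNA (shNT) or one directed at NR4A2 (shNR4A2) or NR4A3 (shNR4A3). Each was left without lipopolysaccharide (LPS, a cell wall component of Gram-negative bacteria that activates Toll-like receptor 4) or given LPS at 2.5 μg/ml for 2 h, with 3 libraries in each of 6 groups and 18 in all. All groups therefore carry a lentiviral hairpin, were kept in puromycin, and descend from the same leukaemia line. The groups of 3 are described as independent experiments. One hairpin line represents each target, and whether it is a clone is not given in the sources used here, so an effect of the target and an effect of that line cannot be told apart. The reads assigned to genes numbered from 16171161 to 23929138 in a library. Levels are given as TPM (transcript levels corrected for gene length and scaled to the same sum in each library), and differences as log2 fold changes ± SE from edgeR on the counts, with the Benjamini-Hochberg adjusted p over all genes tested in a comparison. A gene is said to have risen or fallen where that adjusted p was under 0.05. These fits took no account of the replicate numbers, and results with the number as a block are named as such.

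Wnt proteins are lipid-modified in the producing cell by PORCN and carried to its surface by WLS. On the receiving cell they bind a Frizzled (FZD) receptor together with LRP5 or LRP6, Dishevelled (DVL) proteins are recruited, and the destruction complex of AXIN, APC and the GSK3 kinases stops marking β-catenin (CTNNB1) for degradation, so that β-catenin can work with TCF/LEF factors on DNA. The E3 ligases ZNRF3 and RNF43 remove Frizzled receptors from the surface, and LGR4, LGR5 and LGR6, bound by R-spondins, counter them. SFRP and DKK proteins are secreted inhibitors. In monocytes and macrophages the pathway is known chiefly for its links to inflammation and differentiation.

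The targets were checked first. NR4A2 stood at 4.16, 2.83 and 4.08 TPM in the 3 unstimulated shNT libraries and at 1.82, 1.63 and 2.41 TPM in unstimulated shNR4A2 cells, a log2 fold change of -0.91 (adjusted p = 0.0359, edgeR). With LPS, NR4A2 stood at 62.2, 74.7 and 51.3 TPM in shNT cells and at 20.5, 28.3 and 14.8 TPM in shNR4A2 cells, a log2 fold change of -1.52 (adjusted p = 0.00265, edgeR). NR4A3 was low without LPS, at 0.556, 0.693 and 0.512 TPM in shNT cells and 0.158, 0.107 and 0.0315 TPM in shNR4A3 cells, and with LPS it stood at 30.9, 32.3 and 31.9 TPM in shNT cells and 17.0, 18.2 and 16.7 TPM in shNR4A3 cells. The log2 fold change of NR4A3 was -2.47 without LPS (adjusted p = 0.00767, edgeR) and -0.82 with LPS (adjusted p = 0.000556, edgeR). Each target was thus lower in its own line in both states without overlap of the groups, and both genes rose with LPS in every line. Neither passed in the line of the other target in either state. The log2 fold change there was 0.68 for NR4A3 in unstimulated shNR4A2 cells (adjusted p = 0.292, edgeR), without overlap of the groups. For NR4A2 in shNR4A3 cells with LPS it was -0.36 (adjusted p = 0.198, edgeR).

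The libraries had the transcripts of monocytes. The 9 monocyte and macrophage markers listed, SPI1, LYZ and CD14 among them, summed to between 1156 and 2449 TPM in a library, against at most 1.43 TPM for 5 T cell markers, 10.9 TPM for 4 B cell markers, 2.42 TPM for 5 epithelial markers and 1.99 TPM for 5 fibroblast markers. PECAM1, an adhesion molecule that monocytes share with endothelium, supplied nearly all of the sum of the 4 endothelial markers. Some monocyte markers differed between the lines. The sum of the 9 was 1209 ± 69.5 TPM (SD, n = 3) in unstimulated shNT cells, 1851 ± 127 TPM where NR4A2 and 2162 ± 242 TPM where NR4A3 was depleted, and LYZ was higher by 1.68 and 2.25 on the log2 scale in the 2 knockdown lines without LPS (adjusted p = 6.22e-05 and 6.72e-07, edgeR). Most of the difference in the sum was LYZ, with a mean of 192 TPM in unstimulated shNT, 615 in shNR4A2 and 883 in shNR4A3 cells. In unstimulated shNR4A3 cells 5 of the 9 were higher than in shNT cells, LYZ, CSF1R (85.0 and 166 TPM in shNT and shNR4A3 cells), ITGAM (29.4 and 49.5), CD14 (22.6 and 39.9) and SPI1 (571 and 713), while CD33 (38.8 and 36.6), FCGR1A (96.7 and 92.9), CD4 (170 and 177) and CD68 (2.69 and 4.83) did not pass. In unstimulated shNR4A2 cells LYZ, CSF1R (145 TPM) and CD14 (50.2 TPM) were higher. Of all genes tested without LPS, 3.91% were higher in shNR4A3 and 3.63% in shNR4A2 cells than in shNT cells. With LPS, LYZ (157 TPM in shNT, 509 in shNR4A2 and 732 in shNR4A3 cells) and CSF1R (53.9, 94.4 and 111 TPM) were higher in both knockdown lines, and SPI1 (748 and 1048 TPM in shNT and shNR4A3 cells) and ITGAM (23.6 and 39.9 TPM) in shNR4A3 cells. PECAM1 was higher in shNR4A2 than in shNT cells, at 269 against 174 TPM without and 211 against 135 TPM with LPS, and KDR, an endothelial receptor, stood at 1.81 TPM in unstimulated shNT cells and was lower, at 0.367 and 0.277 TPM, in unstimulated shNR4A2 and shNR4A3 cells. With LPS, KDR had 26, 24 and 25 reads in shNT, 7, 3 and 7 in shNR4A2 and 6, 5 and 16 in shNR4A3 cells. Of the 18 markers tested with LPS in shNR4A2 against shNT cells, 3 were higher and 1 lower (4.31% and 2.65% of all genes). LPS in shNT cells changed 7 of the 19 markers tested (36.8% against 24.9% of all genes), with SPI1 and FCGR1A higher and CSF1R and CD33 lower among the monocyte markers, and the summed monocyte markers went from 1209 to 1301 TPM. The markers that differed moved alongside the Wnt genes described here, and their part in those results was not tested. In such bulk libraries, fewer cells that express a gene and less RNA per cell cannot be told apart.

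Of the 39 genes, 34 had enough reads to be tested in at least 1 comparison and 31 in all 11. The other 5 were WNT5A, LGR5, LGR6, DKK1 and AXIN2, which had 10, 20, 63, 1 and 48 reads over the 18 libraries together. RNF43 had 152 reads and entered 3 comparisons. At this depth, small differences in these 6 genes were not detectable. AXIN2 is a target gene of β-catenin that is used as a readout of the pathway, and its level did not pass 0.292 TPM in any library.

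CTNNB1 was by far the most abundant transcript per length, with a median of 286 TPM over the 18 libraries and a range of 242 to 334 TPM. The kinase GSK3A followed at a median of 71.8 TPM, DVL3 at 62.1, DVL1 at 50.7, LRP5 at 39.1 and FZD6 at 35.6 TPM. The lowest CTNNB1 value thus lay above the highest value of GSK3A, 78.8 TPM, while the ranges of GSK3A (66.0 to 78.8 TPM) and DVL3 (54.0 to 80.7 TPM) overlapped. Of the 5 ligands, WNT6 reached 32.8 TPM, and WNT5B, WNT10B and WNT11 stayed at or under 1.76 TPM in every library. LGR4 was the R-spondin receptor expressed, with a median of 21.7 TPM against 0.107 TPM for LGR6 and 0.0159 TPM for LGR5. LRP5 exceeded LRP6 (median 2.88 TPM) and ZNRF3 (median 6.68 TPM) exceeded RNF43 (median 0.191 TPM) in every library.

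**Figure D1:**
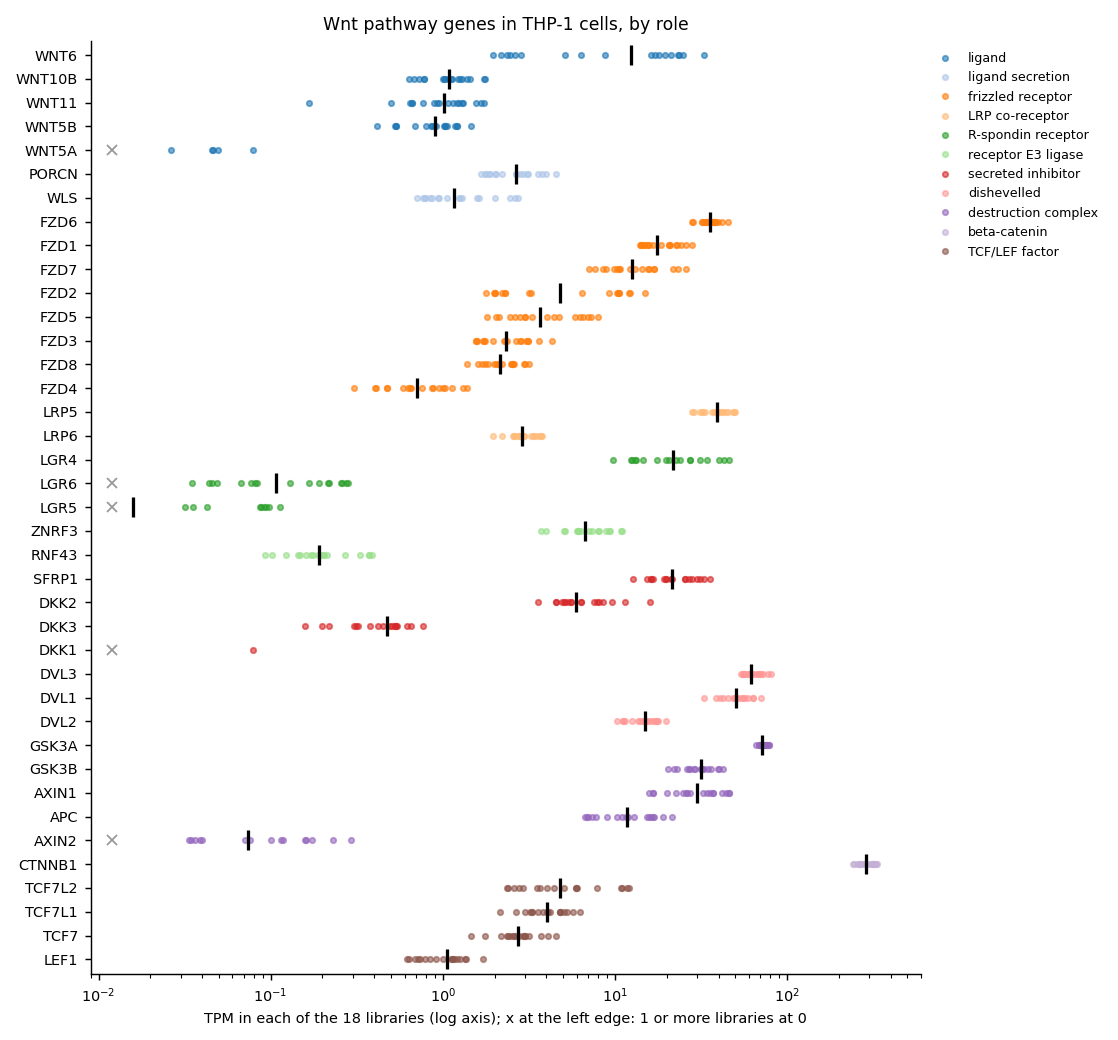
TPM of the 39 genes, grouped by role, in each of the 18 libraries on a log axis; points are libraries, black bars medians, and a cross at the left marks genes with at least 1 library at 0. CTNNB1 has the highest median, 286 TPM, and 5 genes, WNT5A, LGR5, LGR6, DKK1 and AXIN2, lie below 0.3 TPM in every library.

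Promoter sequence was available for 26 of the 39 genes, as windows of 250 bases before each RefSeq start (GRCh38.p14). Those of LGR4, which was lower in all 4 knockdown comparisons, of WNT6 and TCF7L2, which had the largest fall and rise with LPS, and of TCF7, the only one of the 26 with a match to the NR4A monomer element, are given 5′ to 3′ on the gene's strand. Capitals mark the GC box GGGCGG and, in TCF7, also the element AAAGGTCA (NBRE), on either strand. LGR4 lies at chr11:27472791-27473040 on the minus strand, WNT6 at chr2:218859555-218859804, the first TCF7L2 start at chr10:112949997-112950246 and the first TCF7 start at chr5:134115363-134115612, all 3 on the plus strand.
LGR4: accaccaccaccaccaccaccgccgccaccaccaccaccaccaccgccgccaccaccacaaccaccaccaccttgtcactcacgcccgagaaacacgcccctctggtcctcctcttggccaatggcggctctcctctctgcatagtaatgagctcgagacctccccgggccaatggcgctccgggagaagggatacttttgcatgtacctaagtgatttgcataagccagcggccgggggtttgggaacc
WNT6: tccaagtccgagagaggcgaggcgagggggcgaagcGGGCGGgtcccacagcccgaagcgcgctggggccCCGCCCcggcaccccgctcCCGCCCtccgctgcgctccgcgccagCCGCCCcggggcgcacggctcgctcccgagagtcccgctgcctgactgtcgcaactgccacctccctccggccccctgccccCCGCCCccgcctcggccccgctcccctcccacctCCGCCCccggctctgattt
TCF7L2: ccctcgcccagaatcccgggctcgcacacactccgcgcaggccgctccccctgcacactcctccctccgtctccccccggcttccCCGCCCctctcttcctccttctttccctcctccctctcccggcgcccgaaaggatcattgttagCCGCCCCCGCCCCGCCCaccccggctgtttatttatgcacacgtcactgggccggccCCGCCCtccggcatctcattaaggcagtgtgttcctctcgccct
TCF7: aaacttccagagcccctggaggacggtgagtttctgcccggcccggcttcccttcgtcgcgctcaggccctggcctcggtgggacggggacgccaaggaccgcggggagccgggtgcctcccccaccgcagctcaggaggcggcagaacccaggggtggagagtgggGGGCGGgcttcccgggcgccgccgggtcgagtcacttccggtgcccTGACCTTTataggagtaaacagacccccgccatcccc

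The LGR4 window held no match to any of the 4 motifs searched, the WNT6 window held 6 GC boxes and that of TCF7L2 held 5. The NBRE letters occurred in the TCF7 window on the reverse strand, starting 37 bases before the start site, and in 1.05% of the 35116 windows of all genes. Among the 37 windows of the 26 genes, the GC box was present in 22, or 59.5%, against 42.6% of all windows. The TCF/LEF letters TCAAAG were present in those of DKK1 and PORCN, against 11.2% of all windows, and an NF-kappaB consensus in none, against 1.73%. A match is a description of the letters, and 250 bases hold only part of a gene's regulatory sequence.

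The response to LPS was examined next. In shNT cells 14 of the 33 genes tested changed with LPS, 8 upwards and 6 downwards, which is 42.4% against 24.9% of all genes tested (11.6% higher, 13.3% lower). In shNR4A2 cells 12 of 33 changed, 6 in each direction (36.4% against 19.3% of all genes, 9.23% higher and 10.1% lower), and in shNR4A3 cells 13 of 32, with 8 higher and 5 lower (40.6% against 28.1%, 13.1% higher and 15% lower). The median log2 fold change of the genes tested was 0.069, 0.050 and -0.047 in the 3 lines, beside -0.013, -0.016 and -0.011 over all genes, close to 0 in each case. The 11 genes that changed in all 3 lines moved in the same direction in each. The share of all genes that did so is not given here, so neither this number nor the shared direction is set against a background. WNT6, FZD2, FZD5, AXIN1 and APC fell, and FZD1, FZD7, DKK2, SFRP1, CTNNB1 and TCF7L2 rose.

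**Figure D2:**
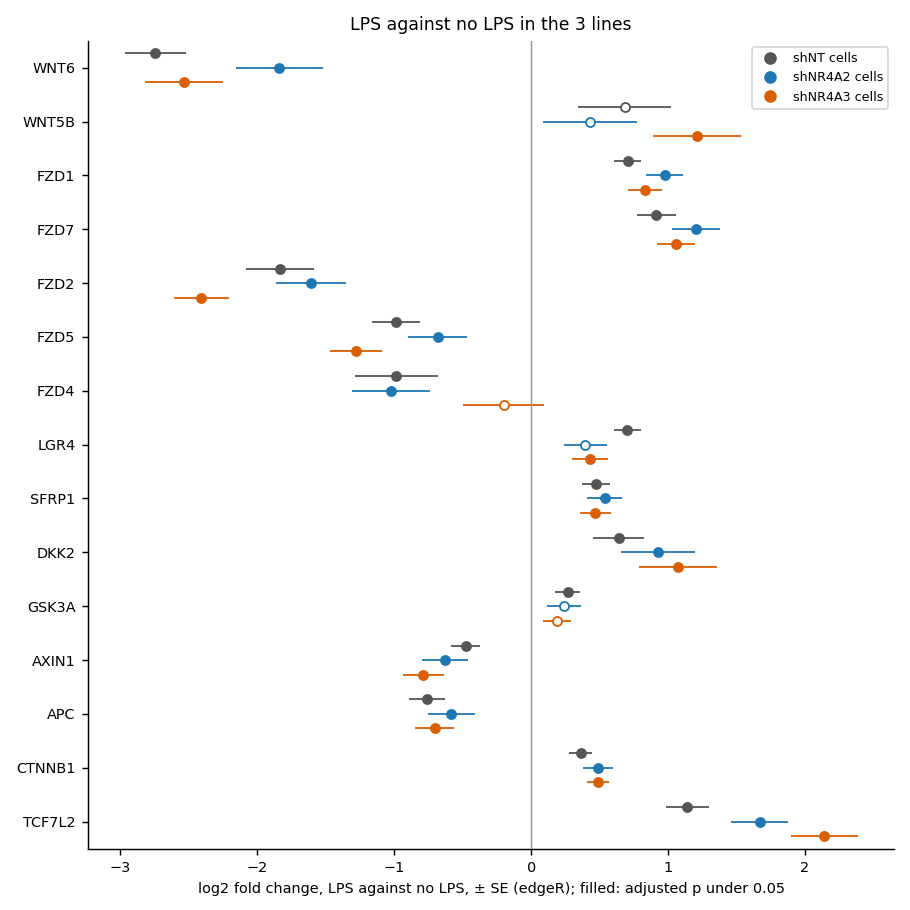
Log2 fold change with LPS against no LPS, ± SE, for the 15 genes that changed in at least 1 line; grey is shNT, blue shNR4A2 and orange shNR4A3, and filled points have an adjusted p under 0.05. WNT6 and FZD2 lie furthest to the left and TCF7L2 furthest to the right, between 1.14 and 2.14.

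Ratios of TPM with LPS were lower than the fold changes from edgeR. Over all genes tested, the log2 ratio of mean TPM had a median between -0.23 and -0.28 in the 3 lines, beside -0.01 to -0.02 for the TMM-scaled fold changes, a shift of -0.22 to -0.27. Of the 39 genes, none that changed in a pairwise comparison had the opposite sign in TPM there.

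Among the ligands, the fall of WNT6 was the largest change of any member. In unstimulated shNT cells WNT6 stood at 18, 23.2 and 16.2 TPM, and with LPS at 2.35, 2.86 and 2.17 TPM, a 6.70-fold fall (log2 fold change -2.74 ± 0.22, adjusted p = 6.57e-07, edgeR). In shNR4A2 cells it went from 19.4, 32.8 and 23.6 TPM to 2.61, 8.70 and 6.32 TPM (-1.84 ± 0.32, adjusted p = 0.00131, edgeR). In shNR4A3 cells it went from 21.1, 24.8 and 17.1 TPM to 1.95, 5.10 and 2.46 TPM (-2.53 ± 0.28, adjusted p = 6.48e-05, edgeR). Every LPS library lay below every unstimulated library of the 3 lines, and replicate 2 was the highest of its group in all 6 groups. The smaller fall in shNR4A2 than in shNT cells, a difference of 0.91 ± 0.44 on the log2 scale, did not pass the test of the interaction (adjusted p = 1.00, edgeR). WNT5B, a ligand chiefly of β-catenin-independent signalling, ranged from 0.417 to 1.46 TPM over all libraries. In shNR4A3 cells it rose from 0.417 to 0.694 TPM without LPS to 1.01 to 1.20 TPM (1.21 ± 0.32, adjusted p = 0.0163, edgeR, and 0.0688 by DESeq2). WNT10B, and PORCN and WLS, which serve secretion, did not pass the test with LPS in any line. WNT11 did not pass in shNT and shNR4A2 cells, and in shNR4A3 cells, where it stood at 0.166, 0.660 and 0.498 TPM without and 1.08, 1.30 and 0.767 TPM with LPS, it had too few reads to be tested (15 and 39).

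The Frizzled receptors moved in opposite directions. Of the 8, FZD2, FZD4 and FZD5 fell and FZD1 and FZD7 rose with LPS in shNT cells and in shNR4A2 cells, and FZD3, FZD6 and FZD8 passed the test in no line. FZD2 went from 6.40, 10.5 and 10.5 TPM to 1.98, 2.30 and 2.28 TPM in shNT cells (-1.83 ± 0.25, adjusted p = 9.37e-05, edgeR). In shNR4A2 cells it went from 9.18, 10.4 and 10.3 to 3.16, 3.25 and 1.78 TPM (-1.61 ± 0.25, adjusted p = 0.000640, edgeR), and in shNR4A3 cells from 12.1, 14.9 and 12.3 to 2.01, 2.00 and 2.22 TPM (-2.41 ± 0.20, adjusted p = 6.67e-06, edgeR). This was a 3.05- to 5.31-fold fall with no overlap in any line.

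FZD5, a receptor at which WNT5A signalling in macrophages has been described, stood at 4.43, 4.75 and 6.55 TPM in unstimulated shNT cells and 2.13, 2.63 and 2.04 TPM with LPS (-0.99 ± 0.17, adjusted p = 0.000795, edgeR). In shNR4A2 cells it went from 5.83, 4.01 and 7.01 to 2.98, 3.29 and 2.47 TPM (-0.68 ± 0.21, adjusted p = 0.0413, edgeR) and in shNR4A3 cells from 7.25, 6.31 and 7.95 to 1.82, 3.02 and 2.80 TPM (-1.28 ± 0.19, adjusted p = 0.000480, edgeR). The groups did not overlap in any line, but the call in shNR4A2 cells was lost without any of 5 of the 6 libraries, all but control replicate 2 (adjusted p up to 0.175, edgeR). FZD4 was under 1.4 TPM in all libraries and went from 0.880, 1.13 and 0.953 to 0.401, 0.586 and 0.305 TPM in shNT cells (-0.98 ± 0.30, adjusted p = 0.0291, edgeR) and from 1.31, 1.03 and 1.38 to 0.411, 0.477 and 0.625 TPM in shNR4A2 cells (-1.02 ± 0.28, adjusted p = 0.0232, edgeR). Both calls were lost with DESeq2 (adjusted p = 0.105 and 0.0615) and without 3 or 4 of the single libraries. In shNR4A3 cells FZD4 went from 0.864, 0.643 and 0.998 to 0.475, 0.754 and 0.658 TPM, with overlapping groups and a log2 fold change of -0.20, and the difference from shNT cells (0.78 ± 0.41) did not pass (adjusted p = 0.999, edgeR). Exons of PRSS23 on the opposite strand overlap 18.9% of those of FZD4, and with the strand setting of the counting unknown its reads cannot be told apart there.

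FZD1 and FZD7, closely related receptors, rose in every line. FZD1 went from 14.2, 14.0 and 14.8 to 20.6, 18.6 and 20.7 TPM in shNT cells (0.70 ± 0.10, adjusted p = 0.000140, edgeR), from 14.2, 15.5 and 16.6 to 27.9, 24.3 and 23.0 TPM in shNR4A2 cells (0.97 ± 0.14, adjusted p = 0.000284, edgeR) and from 14.7, 15.4 and 15.8 to 25.9, 20.6 and 22.7 TPM in shNR4A3 cells (0.83 ± 0.12, adjusted p = 0.000468, edgeR). FZD7 went from 8.47, 8.85 and 7.05 to 14.3, 13.1 and 12.2 TPM in shNT cells (0.91 ± 0.14, adjusted p = 0.000313, edgeR), from 10.6, 15.7 and 10.7 to 23.3, 26.0 and 21.8 TPM in shNR4A2 cells (1.21 ± 0.17, adjusted p = 0.000335, edgeR) and from 7.64, 10.3 and 9.91 to 16.8, 15.5 and 17.0 TPM in shNR4A3 cells (1.06 ± 0.14, adjusted p = 0.000217, edgeR). Control and LPS libraries did not overlap for either gene in any line. FZD6, the most abundant Frizzled, ranged from 28.0 to 45.1 TPM over the 18 libraries, and FZD8 from 1.38 to 3.18 TPM. With LPS, FZD2 at 1.78 to 3.25 TPM was thus far below FZD1 at 18.6 to 27.9 TPM, while without LPS the 2 receptors stood at 6.40 to 14.9 and 14.0 to 16.6 TPM.

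**Figure D3:**
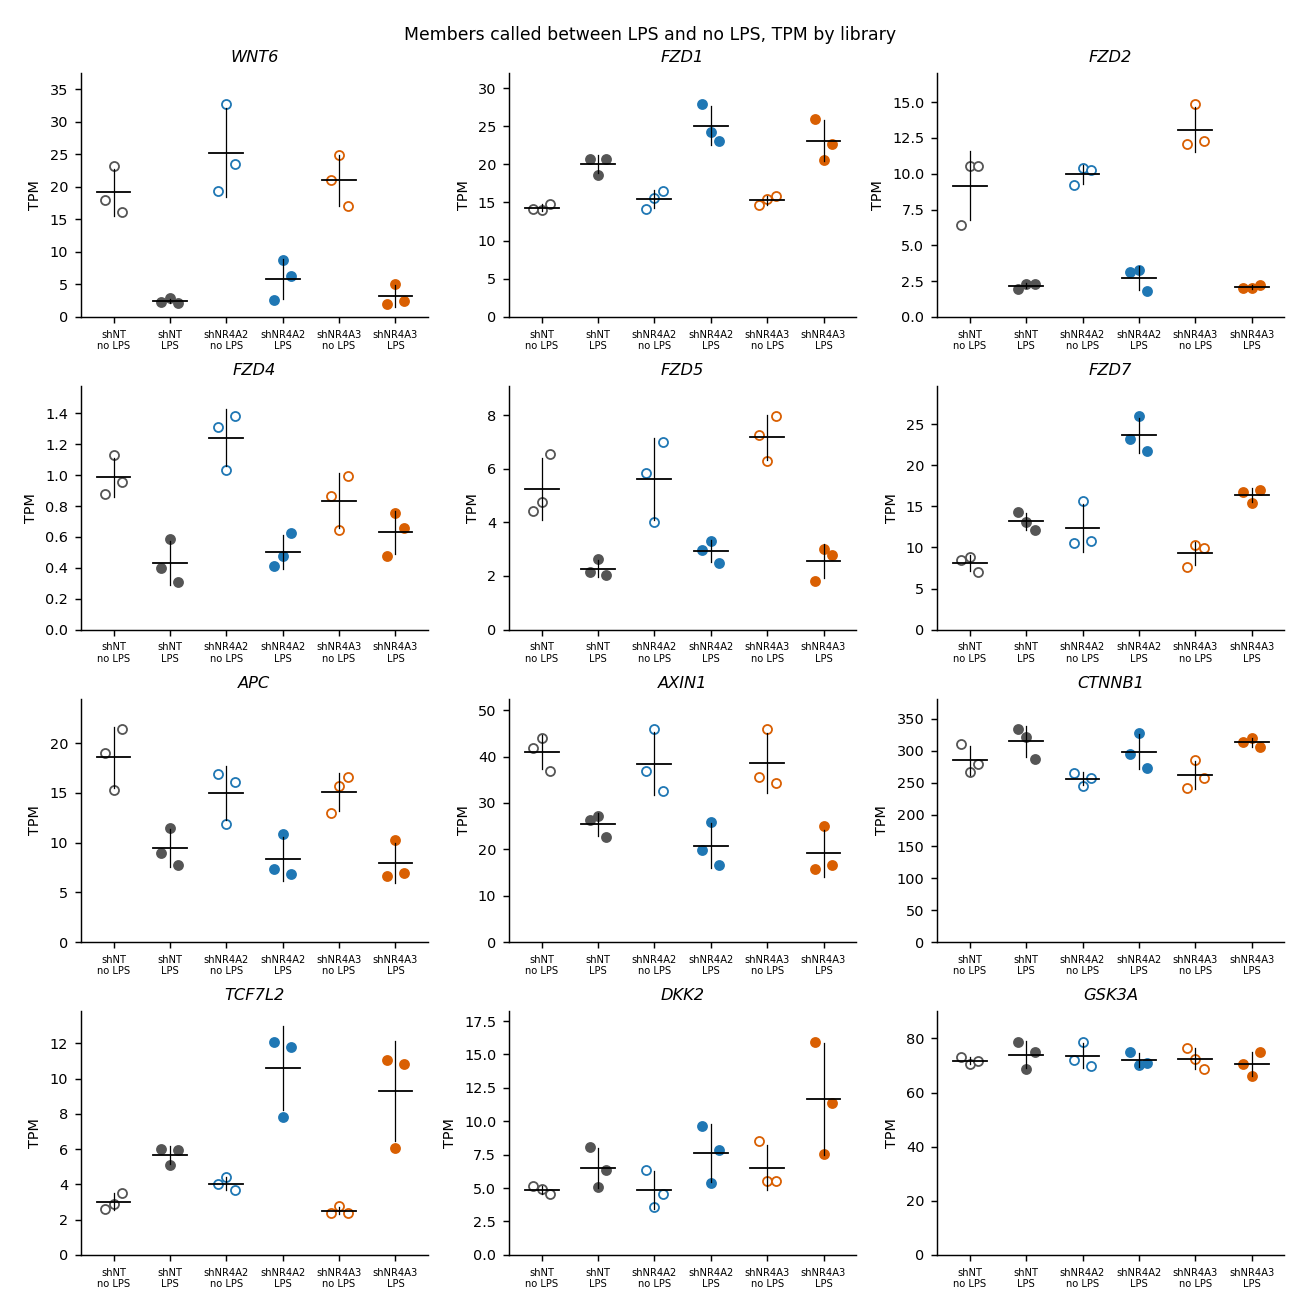
TPM by library of 12 genes that changed with LPS in at least 1 line; open points are unstimulated and filled points LPS-treated libraries, horizontal bars the mean and vertical bars ± SD of 3 libraries. WNT6, FZD2, FZD5, APC and AXIN1 are lower and FZD1, FZD7 and TCF7L2 higher with LPS in all 3 lines, without overlap within a line.

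Of the proteins that tune receptor levels, LGR4 rose from 27.4, 31.0 and 34.2 to 40.2, 43.2 and 45.8 TPM in shNT cells (0.70 ± 0.10, adjusted p = 0.000128, edgeR). It went from 9.68, 13.0 and 12.6 to 13.3, 12.4 and 14.6 TPM in shNR4A3 cells (0.43 ± 0.13, adjusted p = 0.0304, edgeR), where the groups overlapped and the call was lost without control replicate 1 or LPS replicate 1 or 3 (adjusted p up to 0.127, edgeR). In shNR4A2 cells it went from 19.7, 20.6 and 22.8 to 17.4, 23.9 and 27.4 TPM (0.39 ± 0.16, adjusted p = 0.103, edgeR; 0.0302 with the replicate number as a block). ZNRF3, LRP5 and LRP6 did not pass the test with LPS, although in shNR4A3 cells ZNRF3 (-0.39) had an adjusted p of 0.0160 with the block (0.0972 without it, edgeR).

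The secreted inhibitors SFRP1 and DKK2 rose. SFRP1, which binds Wnt proteins, went from 25.6, 28.2 and 30.0 to 35.6, 31.3 and 32.9 TPM in shNT cells (0.47 ± 0.10, adjusted p = 0.00322, edgeR), from 19.8, 19.7 and 21.5 to 21.2, 26.8 and 25.7 TPM in shNR4A2 cells (0.54 ± 0.13, adjusted p = 0.0103, edgeR) and from 12.8, 16.2 and 15.3 to 16.7, 19.3 and 16.3 TPM in shNR4A3 cells (0.47 ± 0.11, adjusted p = 0.00908, edgeR). The rise had nearly the same size in the 3 lines, although in shNR4A2 cells the lowest LPS library lay within the range without LPS. DKK2, a ligand of LRP5 and LRP6, went from 5.12, 4.92 and 4.54 to 8.07, 5.09 and 6.33 TPM in shNT cells (0.64 ± 0.19, adjusted p = 0.0224, edgeR), from 6.38, 3.58 and 4.57 to 9.64, 5.36 and 7.84 TPM in shNR4A2 cells (0.93 ± 0.27, adjusted p = 0.0303, edgeR) and from 8.49, 5.55 and 5.53 to 16.0, 7.58 and 11.4 TPM in shNR4A3 cells (1.07 ± 0.28, adjusted p = 0.0156, edgeR). Its groups overlapped in every line, replicate 1 was highest in all 6 groups, and each of the 3 calls was lost without at least 3 of the single libraries. DKK3 stayed under 0.77 TPM, did not pass in shNT and shNR4A2 cells and was not tested in shNR4A3 cells.

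In the destruction complex the scaffolds APC and AXIN1 fell in all 3 lines. APC went from 19.0, 15.3 and 21.4 to 9.01, 11.5 and 7.76 TPM in shNT cells (-0.76 ± 0.13, adjusted p = 0.000599, edgeR), from 16.9, 11.9 and 16.1 to 7.33, 10.9 and 6.84 TPM in shNR4A2 cells (-0.58 ± 0.17, adjusted p = 0.0308, edgeR) and from 13.0, 15.7 and 16.6 to 6.67, 10.3 and 6.95 TPM in shNR4A3 cells (-0.70 ± 0.14, adjusted p = 0.00360, edgeR). AXIN1 went from 41.9, 44 and 36.9 to 26.3, 27.2 and 22.6 TPM in shNT cells (-0.48 ± 0.11, adjusted p = 0.00422, edgeR), from 36.9, 45.9 and 32.6 to 19.9, 26.0 and 16.6 TPM in shNR4A2 cells (-0.63 ± 0.17, adjusted p = 0.0183, edgeR) and from 35.5, 45.9 and 34.2 to 15.8, 25.0 and 16.7 TPM in shNR4A3 cells (-0.79 ± 0.15, adjusted p = 0.00211, edgeR). No LPS library overlapped the unstimulated libraries of its line for either gene. In shNR4A2 cells APC lost its call without 4 and AXIN1 without 3 of the 6 libraries. GSK3A stood at 73.1, 70.6 and 71.5 TPM without and 78.6, 68.7 and 74.9 TPM with LPS in shNT cells (0.27 ± 0.09, adjusted p = 0.0465, edgeR), with overlapping groups and a call that held without 1 library only, LPS replicate 2. GSK3B ranged from 20.4 to 42.6 TPM and passed in no line, although its log2 fold change was negative in each (-0.16, -0.22 and -0.26 in shNT, shNR4A2 and shNR4A3 cells). In shNR4A3 cells it went from 33.1, 42.6 and 31.9 to 27.4, 26.2 and 22.9 TPM without overlap (adjusted p = 0.127, edgeR; 0.0465 with the block).

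β-catenin and one nuclear partner rose. CTNNB1 went from 310, 266 and 278 to 334, 322 and 287 TPM in shNT cells (0.36 ± 0.09, adjusted p = 0.00709, edgeR), from 266, 245 and 258 to 295, 328 and 273 TPM in shNR4A2 cells (0.49 ± 0.11, adjusted p = 0.00746, edgeR) and from 242, 285 and 258 to 314, 319 and 306 TPM in shNR4A3 cells (0.49 ± 0.08, adjusted p = 0.000944, edgeR). In TPM the mean rose by a ratio of only 1.10, 1.17 and 1.20, and the shNT groups overlapped.

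TCF7L2, a TCF factor, showed the largest rise of the 39 genes. It went from 2.61, 2.91 and 3.53 to 5.98, 5.08 and 5.97 TPM in shNT cells (1.14 ± 0.16, adjusted p = 9.99e-05, edgeR), from 4.02, 4.44 and 3.66 to 12.1, 7.84 and 11.8 TPM in shNR4A2 cells (1.67 ± 0.21, adjusted p = 0.000112, edgeR) and from 2.37, 2.75 and 2.39 to 11.1, 6.05 and 10.8 TPM in shNR4A3 cells (2.14 ± 0.24, adjusted p = 7.39e-05, edgeR). Every LPS library lay above the unstimulated libraries of its own line. The response was 1.00 ± 0.31 larger on the log2 scale in shNR4A3 than in shNT cells, with an unadjusted p of 0.00531 and an adjusted p of 0.847 (edgeR). Without shNR4A3 LPS replicate 2 the adjusted p was 0.0213 (edgeR), in a fit that called 44 of all genes. The fits without any other single library called none of all genes. TCF7 (1.45 to 4.53 TPM), TCF7L1 (2.13 to 6.29 TPM) and LEF1 (0.622 to 1.71 TPM) did not pass the test with LPS, nor did DVL1, DVL2 or DVL3, although in shNR4A3 cells DVL2 (-0.31) had an adjusted p of 0.0198 with the block (0.0633 without it, edgeR). With ZNRF3, GSK3B and DVL2 the block called 16 of the 32 genes in shNR4A3 cells, beside 39.4% of all genes tested.

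None of the 39 genes passed the test of a different LPS response in either knockdown line, out of 33 and 34 tested, nor did any of all 16674 and 16428 genes tested (0% in both). At an unadjusted p under 0.05 there were 0 and 2 of them, the latter TCF7L2 and WLS with shNR4A3, and 365 and 824 of all genes; DESeq2 passed 0 of them in both and 2 and 8 of all genes.

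The knockdown lines were then compared with shNT cells. Both comparisons share the shNT libraries. Without LPS, 4 of 33 genes differed in shNR4A2 cells, 1 higher and 3 lower (12.1% against 6.45% of all genes tested, 3.63% higher and 2.82% lower), and 4 of 32 were lower in shNR4A3 cells (12.5% against 7.23%, 3.91% higher and 3.32% lower). In the presence of LPS, 5 of 33 differed in shNR4A2 cells, 2 higher and 3 lower (15.2% against 6.96%, 4.31% higher and 2.65% lower), and 3 of 33 were lower in shNR4A3 cells (9.09% against 6.45%, 3.99% higher and 2.46% lower). These are counts of a few genes. Median log2 fold changes of the genes tested were 0.0012, -0.080, -0.019 and -0.097 in the order of these comparisons, beside -0.0010, -0.0031, -0.0014 and -0.0085 over all genes. The replicate numbers paired the libraries in all 4 comparisons, and with the number as a block the counts in that order were 10, 6, 12 and 10. Calls among all genes rose with the block too, to 23.6%, 14.8%, 28.1% and 21.8% of those tested.

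**Figure D4:**
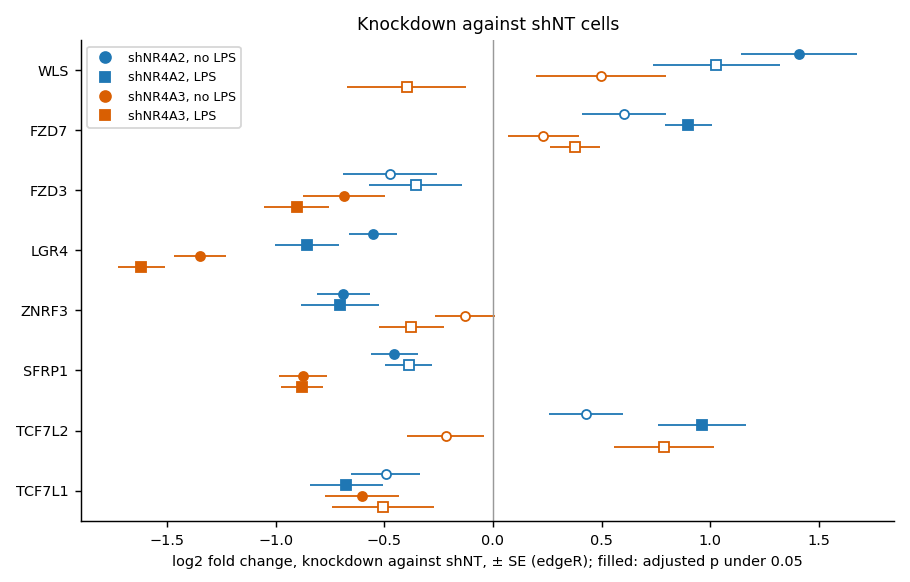
Log2 fold change against shNT cells, ± SE, for the 8 genes that differed in at least 1 of 4 comparisons; blue is shNR4A2, orange shNR4A3, circles without and squares with LPS, filled where the adjusted p was under 0.05. LGR4 is filled in all 4, from -0.55 to -1.62.

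LGR4 was lower in both knockdown lines in both states, and of the 39 genes it alone differed in all 4 comparisons of the unpaired fit. With the replicate block SFRP1 and FZD3 were lower in all 4 as well. The share of all genes that differed in all 4 is not given here, so these counts are not set against a background. The gene lies at chr11:27365961-27472775 on the minus strand of GRCh38. Against 27.4, 31.0 and 34.2 TPM in unstimulated shNT cells it stood at 19.7, 20.6 and 22.8 TPM in shNR4A2 cells, a 1.47-fold lower level (-0.55 ± 0.11, adjusted p = 0.0125, edgeR). In shNR4A3 cells it stood at 9.68, 13.0 and 12.6 TPM, 2.54-fold lower than in shNT cells (-1.35 ± 0.12, adjusted p = 1.86e-05, edgeR). With LPS the values were 40.2, 43.2 and 45.8 TPM in shNT cells, 17.4, 23.9 and 27.4 TPM in shNR4A2 cells (-0.86 ± 0.15, adjusted p = 0.0106, edgeR) and 13.3, 12.4 and 14.6 TPM in shNR4A3 cells (-1.62 ± 0.11, adjusted p = 5.75e-05, edgeR). The 3 lines kept the order shNT, shNR4A2, shNR4A3 in both states without overlap. The call in unstimulated shNR4A2 cells was lost without shNT control replicate 2 or 3 (adjusted p up to 0.0617, edgeR), and the other 3 held without any single library.

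Compared directly, LGR4 was 1.73-fold higher in shNR4A2 than in shNR4A3 cells without LPS (0.79 ± 0.13, adjusted p = 0.00462, edgeR), the 1 gene of the 32 tested among the 39 that passed (3.08% of all genes did, 1.94% higher and 1.14% lower). With LPS it was 0.77 ± 0.16 higher (adjusted p = 0.0509, edgeR; 0.000194 with the block).

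SFRP1 followed the same order of lines. Without LPS it stood at 25.6, 28.2 and 30.0 TPM in shNT cells, at 19.8, 19.7 and 21.5 TPM in shNR4A2 cells (-0.45 ± 0.11, adjusted p = 0.0286, edgeR) and at 12.8, 16.2 and 15.3 TPM in shNR4A3 cells (-0.87 ± 0.11, adjusted p = 0.000345, edgeR). With LPS it stood at 35.6, 31.3 and 32.9 TPM in shNT cells, at 21.2, 26.8 and 25.7 TPM in shNR4A2 cells (-0.39 ± 0.11, adjusted p = 0.0631, edgeR; 0.000273 with the block) and at 16.7, 19.3 and 16.3 TPM in shNR4A3 cells (-0.88 ± 0.10, adjusted p = 0.00106, edgeR). No group of one line overlapped another in the same state. The shNR4A3 calls held without any single library, while the unstimulated shNR4A2 call held only without control replicate 2 of that line. The direct difference between the knockdown lines, 0.42 ± 0.12 and 0.49 ± 0.10, missed the threshold in both states (adjusted p = 0.10 and 0.0507, edgeR; 0.0102 and 0.000946 with the block).

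ZNRF3 was lower in shNR4A2 cells. Without LPS it stood at 9.30, 9.26 and 11.1 TPM in shNT cells and 6.14, 6.13 and 6.04 TPM in shNR4A2 cells (-0.69 ± 0.12, adjusted p = 0.00637, edgeR), and with LPS at 7.93, 8.92 and 6.33 TPM and 3.97, 6.06 and 3.70 TPM (-0.70 ± 0.18, adjusted p = 0.0469, edgeR). The groups did not overlap in either state, and the second call held only without shNR4A2 LPS replicate 2. In shNR4A3 cells ZNRF3 stood at 8.12, 10.8 and 7.37 TPM without LPS (-0.13 ± 0.14, adjusted p = 0.655, edgeR) and 5.09, 7.03 and 5.09 TPM with it (-0.38 ± 0.15, adjusted p = 0.169, edgeR; 0.0216 with the block). The lines did not pass when compared directly without LPS (-0.56 ± 0.15, adjusted p = 0.0755, edgeR; 0.00650 with the block), so a difference between them was not shown by the unpaired fit.

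Among the Frizzled receptors FZD3 was lower in shNR4A3 cells, at 1.58, 2.36 and 1.96 TPM against 2.66, 2.84 and 4.32 TPM in shNT cells without LPS (-0.69 ± 0.19, adjusted p = 0.0422, edgeR) and at 1.55, 1.57 and 1.76 TPM against 2.81, 3.11 and 3.61 TPM with LPS (-0.90 ± 0.15, adjusted p = 0.00782, edgeR). The LPS call held without any single library, and the unstimulated call was lost without 4 of the 6. In shNR4A2 cells FZD3 stood at 1.73, 2.25 and 3.05 TPM and at 1.71, 2.30 and 3.14 TPM, overlapping shNT cells in both states (adjusted p = 0.238 and 0.365, edgeR; 0.00762 and 0.0192 with the block).

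FZD7 was higher in shNR4A2 cells with LPS, at 23.3, 26.0 and 21.8 TPM against 14.3, 13.1 and 12.2 TPM in shNT cells (0.90 ± 0.11, adjusted p = 0.00217, edgeR), and this call held without any single library. It was also the 1 gene of the 34 tested among the 39 that differed between the knockdown lines with LPS (2.33% of all genes did, 1.27% higher and 1.06% lower), with 16.8, 15.5 and 17.0 TPM in shNR4A3 cells (0.52 ± 0.11, adjusted p = 0.0479, edgeR). That second call was lost without each of the 6 libraries in turn (adjusted p 0.0765 to 0.163, edgeR). Without LPS, FZD7 stood at 10.6, 15.7 and 10.7 TPM in shNR4A2 cells against 8.47, 8.85 and 7.05 TPM in shNT cells (0.60 ± 0.19, adjusted p = 0.0926, edgeR; 0.00402 with the block).

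WLS, which carries Wnt proteins to the cell surface, was higher in shNR4A2 cells, at 2.00, 1.62 and 2.61 TPM without LPS against 0.786, 0.792 and 0.766 TPM in shNT cells, a 2.66-fold difference (1.41 ± 0.27, adjusted p = 0.00952, edgeR) on 167 and 55 reads over the 3 libraries of each group. With LPS the values were 2.44, 1.58 and 2.72 TPM against 0.936, 1.25 and 1.26 TPM (1.03 ± 0.29, adjusted p = 0.0693, edgeR; 0.00202 with the block). In shNR4A3 cells WLS stood at 0.847, 1.06 and 1.29 TPM without and 0.868, 0.947 and 0.712 TPM with LPS, and neither passed.

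The 2 TCF factors that differed went opposite ways. TCF7L1, known chiefly as a repressor, was lower in shNR4A2 cells with LPS, at 2.66, 3.32 and 3.02 TPM against 4.82, 4.78 and 5.28 TPM in shNT cells (-0.67 ± 0.17, adjusted p = 0.0425, edgeR). It was also lower in unstimulated shNR4A3 cells, at 3.21, 4.10 and 3.56 TPM against 5.05, 5.71 and 6.29 TPM (-0.60 ± 0.17, adjusted p = 0.0494, edgeR; 0.0941 by DESeq2). In the other 2 comparisons TCF7L1 did not pass, at 4.01, 3.84 and 4.21 TPM in unstimulated shNR4A2 cells (-0.49 ± 0.16, adjusted p = 0.0946, edgeR; 0.0230 with the block) and 2.13, 4.79 and 3.30 TPM in shNR4A3 cells with LPS (-0.51 ± 0.24, adjusted p = 0.235, edgeR). Neither TCF7L1 call held when any of the 6 libraries was left out, although the groups did not overlap. TCF7L2 was higher in shNR4A2 cells with LPS, at 12.1, 7.84 and 11.8 TPM against 5.98, 5.08 and 5.97 TPM (0.96 ± 0.20, adjusted p = 0.0239, edgeR), a call that held only without shNR4A2 LPS replicate 2. In shNR4A3 cells with LPS it stood at 11.1, 6.05 and 10.8 TPM (0.79 ± 0.23, adjusted p = 0.0760, edgeR; 0.000928 with the block).

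**Figure D5:**
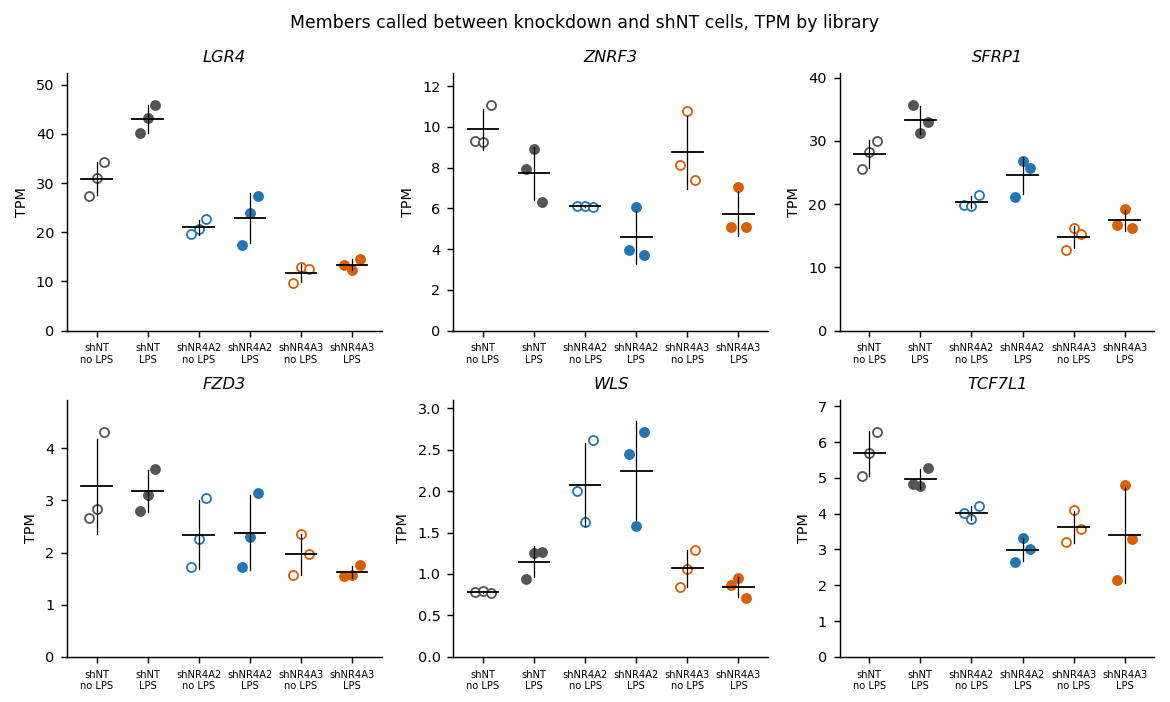
TPM by library of 6 genes that differed between knockdown and shNT cells; open points are unstimulated and filled points LPS-treated libraries, horizontal bars the mean and vertical bars ± SD of 3 libraries. LGR4 and SFRP1 have the order shNT, shNR4A2, shNR4A3 from high to low in both states, although not every step passed the test. WLS has its highest means in shNR4A2 cells.

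The block brought in further members of the pathway. Without LPS these were WNT6 (log2 fold change 0.38), APC (-0.31) and FZD6 (-0.23) beside TCF7L1, FZD7 and FZD3 in shNR4A2 cells, and FZD5 (0.52) and FZD2 (0.58) in shNR4A3 cells. With LPS they were WNT6 (1.25), TCF7 (0.42), FZD1 (0.38) and AXIN1 (-0.25) beside WLS, FZD3 and SFRP1 in shNR4A2 cells, and DKK2 (0.88), DVL1 (-0.40), FZD1 (0.26), AXIN1 (-0.37) beside FZD7, TCF7L2 and ZNRF3 in shNR4A3 cells. Between the knockdown lines the block raised the count from 1 to 8 without LPS and from 1 to 11 with it, where 11.6% and 23.6% of all genes tested passed with the block. TCF7, whose window holds the NBRE letters, did not pass in any comparison of the unpaired fit; 2.09% of its exons overlap SKP1, a far more abundant gene on the opposite strand.

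Of the genes tested, those that passed in no comparison of the unpaired fit were WNT10B, WNT11, PORCN, FZD6, FZD8, LRP5, LRP6, RNF43, DKK3, DVL1, DVL2, DVL3, GSK3B, TCF7 and LEF1, 15 in all. WNT11, RNF43 and DKK3 among them were tested in only 8, 3 and 10 of the 11 comparisons. With the block, DVL1, DVL2, FZD6, GSK3B, LRP6 and TCF7 passed in at least 1 comparison. In TPM the 3 Dishevelled genes ranged from 33.1 to 70.8 (DVL1), 10.3 to 19.8 (DVL2) and 54.0 to 80.7 (DVL3) over the 18 libraries.

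A wider list of 96 other Wnt genes (further ligands, R-spondins, inhibitors and regulators) was examined in the same way. In unstimulated shNR4A2 cells 5 of 68 tested differed, 4 higher and 1 lower, and with LPS 4 of 69, 2 in each direction (7.35% and 5.80%, against 6.45% and 6.96% of all genes tested). The ligand WNT7B was higher in both states, with a mean of 37.5 ± 13.3 TPM against 11.9 ± 2.99 TPM in shNT cells (SD, n = 3) without LPS (1.66 ± 0.25, adjusted p = 0.00282, edgeR) and of 26.6 ± 14.3 against 7.59 ± 2.45 TPM with LPS (1.85 ± 0.32, adjusted p = 0.0102, edgeR). AMER1, an APC-binding membrane protein, was lower in both (-1.08 ± 0.14 and -1.02 ± 0.25), and the R-spondin gene RSPO1 higher without LPS (0.96 ± 0.16). The ligand WNT3 was lower with LPS, at 5.54 ± 0.997 against 10.8 ± 1.72 TPM (SD, n = 3; -0.91 ± 0.18, adjusted p = 0.0184, edgeR). With 1 library left out the counts ran from 3 to 6 without LPS and 1 to 5 with it, and with the block they were 18 and 19. The calls of WNT7B, AMER1 and RSPO1 without LPS held without any single library. With LPS that of WNT7B was lost without shNT LPS replicate 1 (adjusted p = 0.0525, edgeR), that of WNT3 without shNT LPS replicate 2 or 3 (up to 0.0722), and that of AMER1 without any library but shNR4A2 LPS replicate 2 (up to 0.151).

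In shNR4A3 cells 5 of 66 of these genes differed without LPS, 2 higher and 3 lower, and 6 of 69 with LPS, 2 higher and 4 lower (7.58% and 8.70%, against 7.23% and 6.45% of all genes tested). PYGO1, a nuclear co-factor of β-catenin, was lower (-0.68 ± 0.15 and -0.59 ± 0.13), as was KREMEN1, a receptor of DKK proteins (-0.62 ± 0.13 and -0.63 ± 0.15). FRAT1, which binds GSK3, was higher without LPS (0.48 ± 0.14) and CELSR3 with LPS (0.62 ± 0.15). SFRP2, a secreted inhibitor, was higher than in shNT cells with LPS in both knockdown lines, by 1.69 ± 0.32 in shNR4A2 and 1.49 ± 0.36 in shNR4A3 cells, on 209, 181 and 73 reads in shNR4A2, shNR4A3 and shNT cells. With 1 library left out the counts in shNR4A3 cells ran from 1 to 6 without LPS and 0 to 9 with it, and with the block they were 13 and 16. The KREMEN1 call without LPS held without any single library, and that of PYGO1 was lost without shNT control replicate 3 or shNR4A3 control replicate 1 (adjusted p up to 0.0686, edgeR). FRAT1 without LPS and CELSR3, PYGO1 and SFRP2 with LPS each held in 1 of 6 such fits, KREMEN1 with LPS in 3, and SFRP2 in shNR4A2 cells in 3.

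Between the knockdown lines 4 of 69 of these genes differed without LPS, 3 higher and 1 lower in shNR4A2 cells, and 1 of 68 with LPS (5.80% and 1.47%, against 3.08% and 2.33% of all genes tested). WNT7B was higher in shNR4A2 than in shNR4A3 cells, at 30.2, 52.8 and 29.4 against 4.93, 12.9 and 10.8 TPM without LPS (1.95 ± 0.29, adjusted p = 0.00270, edgeR) and at 20.5, 43.0 and 16.3 against 2.56, 9.57 and 5.01 TPM with LPS (2.23 ± 0.44, adjusted p = 0.0396, edgeR). The groups did not overlap in either state, and the call with LPS was lost without shNR4A2 LPS replicate 1 or 2 or shNR4A3 LPS replicate 1 or 3 (adjusted p up to 0.163, edgeR). Without LPS, KREMEN1 (0.59 ± 0.14) and TLE1, a co-repressor that works with TCF/LEF factors (0.51 ± 0.11), were also higher and AMER1 (-0.84 ± 0.20) lower in shNR4A2 than in shNR4A3 cells.

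With LPS in shNT cells 17 of 69 of these genes changed, 5 higher and 12 lower, or 24.6% against 24.9% of all genes. In shNR4A2 cells 11 of 69 changed, 3 higher and 8 lower (15.9% against 19.3%), and in shNR4A3 cells 20 of 67, 9 higher and 11 lower (29.9% against 28.1%). SFRP2 rose from 8 to 73 reads over the 3 libraries (3.20 ± 0.57, adjusted p = 0.000955, edgeR). DACT1, a Dishevelled-binding antagonist, fell from 85 to 22 reads (-1.87 ± 0.36, adjusted p = 0.00158, edgeR), and FRAT1 from a mean of 22.2 ± 2.39 to 6.12 ± 1.48 TPM (SD, n = 3; -1.65 ± 0.17, adjusted p = 7.43e-06, edgeR). The 2 lists, with 24.6%, 15.9% and 29.9% here and 42.4%, 36.4% and 40.6% among the 39 genes, were not tested against each other.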

How the data were processed

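RNA was sequenced from 18 libraries of THP-1 cells, 3 in each of 6 groups (shNT, shNR4A2 and shNR4A3, without or with LPS), from polyadenylated RNA read from both ends. The authors deposited counts, whole numbers of reads for each Ensembl gene that were not normalized, beside the gene's position and merged exon length. The submitters' processing notes name Trimmomatic 0.36, STAR 2.5.2b and featureCounts of Subread 1.5.2 on GRCh38. The annotation release and the strand setting of the counting are not given in the sources used here, so overlapping genes on opposite strands cannot be told apart. Total counts ran from 16171161 to 23929138 per library (median 19639071), and precision for genes of a few counts is limited accordingly.

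Symbols came from GENCODE 29 for 56898 of 57500 genes. TPM was computed as count over length, scaled to 1 sum per library. Tests used edgeR 4.0.16 in R 4.3.3 (filterByExpr with a minimum count of 10 and a total of 15, TMM, quasi-likelihood F test, Benjamini-Hochberg adjustment, limit 0.05), each comparison on its own 6 libraries or, for the interaction of line and LPS, on 12. SE is that of the log2 fold change, computed as its absolute value over the square root of the F statistic. An exact two-sided permutation test of 3 values against 3 cannot go below p = 0.1 and was not used for calls. Alternatives were DESeq2 1.42.0, RLE size factors, no filter, a block for the replicate number, a single fit of all 18 libraries, and each library left out in turn. Residuals of same-numbered libraries correlated above 0.1 in every replicate, from 0.159 to 0.533, in 8 of the 9 pairwise comparisons, and the numbers were taken to pair the libraries there. The main calls nevertheless come from fits without the block, so a gene that did not pass in them could pass with it. The lowest value was 0.0598 for LPS in shNT cells. On simulated counts with 200 changed genes for unstimulated shNR4A2 against shNT cells (15800 genes), edgeR recovered 90% of 2-fold and 100% of 4-fold changes with 7.32% false calls. For the shNR4A2 interaction (16674 genes) it recovered 59% and 96%.

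All 39 genes are accounted for by role, those called in at least 1 of 11 comparisons with every library's TPM or, where called once, the range. From the 96 other Wnt genes, members are named for the 4 knockdown comparisons and for LPS in shNT cells, the 3 largest changes of each and, outside that rule, WNT3, PYGO1 in shNR4A3 cells with LPS, and the genes that differed between the knockdown lines, chosen after their values were seen. The members and lists were chosen with earlier results of these data known. Figures were drawn with matplotlib. Promoter windows are RefSeq's, and no protein sequence was used here.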

Additional observations from a re-analysis of the deposited data

Results flagged for a closer look

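The 2 knockdown lines were compared directly, and genes that passed that test are given. In the unpaired fit there was, of the 39 genes, 1 of 32 tested without LPS and 1 of 34 with it (3.12% and 2.94%, against 3.08% and 2.33% of all genes tested), shares close to the background of that fit. With the replicate block 8 of 32 and 11 of 34 passed, where 11.6% and 23.6% of all genes tested did. The values that follow are from the unpaired fit. LGR4 was higher in shNR4A2 than in shNR4A3 cells without LPS by 0.794908 on the log2 scale (adjusted p = 0.00462, edgeR), and this held without any single library (6 of 6 fits). FZD7 was higher in shNR4A2 than in shNR4A3 cells with LPS by 0.522182 (adjusted p = 0.0479, edgeR), and this held in 0 of the 6 fits with a library left out. In both, all 3 shNR4A2 libraries lay above all 3 shNR4A3 libraries. Of the other Wnt genes, WNT7B was higher in shNR4A2 cells by 1.94903 without LPS (adjusted p = 0.00270, edgeR; 6 of 6 fits with a library left out) and by 2.23141 with it (0.0396; 2 of 6). Without LPS, KREMEN1 was higher by 0.594111 (0.0377; 2 of 6) and TLE1 by 0.511229 (0.0298; 1 of 6), and the difference of AMER1 was -0.844845 (0.0356; 3 of 6).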

How the results depend on the processing

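Of the 39 genes, none that was called, or would be called under any alternative, changed direction under the alternatives tried, nor did any of the other 96 that was called in the comparisons given. Of the 39 genes, the number called in shNR4A2 against shNT cells without LPS (4) was 10 with the replicate block. With LPS (5) it was 8 without a filter, 12 with the replicate block and 9 with all 18 libraries in 1 fit. In shNR4A3 against shNT cells without LPS (4) it was 2 with all 18 libraries, and with LPS (3) it was 6 by DESeq2, 7 without a filter and 10 with the block. Between the knockdown lines without LPS (1) it was 2 by DESeq2, 2 without a filter, 8 with the block and 3 with all 18 libraries. With LPS (1) it was 5 by DESeq2, 0 with RLE size factors, 6 without a filter, 11 with the block and 5 with all 18 libraries. For the shNR4A3 interaction (0) it was 1 without a filter (TCF7L2, adjusted p = 0.0100, edgeR), in a fit that called 138 of all 43900 genes. The 3 LPS counts stayed within 1.5 times of the main count under all of these. The block called none of the 39 genes in the shNR4A2 or shNR4A3 interaction, beside 8 of 16674 and 22 of 16428 of all genes tested. Among the 96 other genes, the count in shNR4A2 cells without LPS (5) was 10 without a filter and 18 with the block, and with LPS (4) it was 19 with the block. In shNR4A3 cells without LPS (5) it was 8, 13 and, with all 18 libraries, 3, and with LPS (6) it was 11 without a filter and 16 with the block. Between the knockdown lines it was 11 with the block without LPS (4), and with LPS (1) it was 3 by DESeq2, 9 without a filter, 19 with the block and 9 with all 18 libraries. For LPS in shNR4A2 cells (11) it was 20 with the block. The number called among all genes moved as well, in the 6 comparisons between lines to between 2.05 and 10.1 times the unpaired count with the block, 1.32 and 3.04 times without a filter, 1.03 and 1.97 times by DESeq2 and 0.793 and 2.85 times with all 18 libraries. The replicate block lost no call, and the cause of these shifts was not tested.

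With 1 library left out, the counts of the 39 genes ran from 2 to 4 and 2 to 5 in shNR4A2 cells without and with LPS, 2 to 3 and 3 to 8 in shNR4A3 cells, 11 to 14, 8 to 10 and 10 to 15 for LPS in shNT, shNR4A2 and shNR4A3 cells, 1 to 1 and 0 to 1 between the knockdown lines, and 0 to 0 and 0 to 1 for the interactions. Those of the 96 other genes ran from 3 to 6, 1 to 5, 1 to 6 and 0 to 9 in the 4 knockdown comparisons, 15 to 19, 10 to 16 and 13 to 23 for LPS in shNT, shNR4A2 and shNR4A3 cells (the lowest of the last, from 20, without shNR4A3 LPS replicate 3), and 1 to 4 and 0 to 1 between the knockdown lines without and with LPS. In the 39 genes the count fell to 2 without shNT control replicate 2 or 3 (shNR4A2, no LPS), to 2 without any shNT LPS library or shNR4A2 LPS replicate 3 and to 3 without its replicate 1 (shNR4A2, LPS), and to 2 without shNT control replicate 2 or shNR4A3 control replicate 1 or 3 (shNR4A3, no LPS). It rose to 8 without shNR4A3 LPS replicate 2 (shNR4A3, LPS), was 1 for the shNR4A3 interaction without the same library, and was 0 between the lines with LPS without shNR4A2 LPS replicate 3 or any shNR4A3 LPS library. In the 96 other genes it fell to 3 without shNT control replicate 1 or 3 or shNR4A2 control replicate 1 (shNR4A2, no LPS), to 1 or 2 without any shNT LPS library or shNR4A2 LPS replicate 1 (shNR4A2, LPS), to between 1 and 3 without shNT or shNR4A3 control replicate 1 or 3 (shNR4A3, no LPS), and to between 0 and 2 without any shNT LPS library or shNR4A3 LPS replicate 1 or 3 (shNR4A3, LPS). Between the lines it was 1 or 2 without shNR4A2 control replicate 1 or 3 or shNR4A3 control replicate 2 or 3, and 0 with LPS without shNR4A2 LPS replicate 1 or 2 or shNR4A3 LPS replicate 1 or 3. Depth limits genes of a few reads, and 3 libraries a group limit small differences.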
